A study of Drosophila melanogaster with 6 samples.

Results

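The 5 genes described here control the antioxidant transcription factor Nrf2 in Drosophila or make glutathione: cnc, Keap1, maf-S, Gclc and Gclm. They were chosen by gene symbol, each matched 1 row of the authors' gene table of 14239 genes, and all 5 passed the minimum mean FPKM of 1, as did 8437 genes of the table. mRNA-seq was carried out on wing imaginal disc cells sorted for nub-GFP, a GFP insertion that labels the wing pouch and the regeneration blastema. The ablated group comprised 3 replicates of the genotype nub-GFP/+; rn-Gal4, GAL80ts, UAS-rpr/+, and the control group 3 mock-ablated replicates of nub-GFP/+; rn-Gal4, GAL80ts/+. Larvae of both groups were reared at 18 °C and, early in the third instar, held at 30 °C for 24 h, a temperature at which GAL80ts no longer blocks rn-Gal4, so that the pouch driver switched on the pro-apoptotic gene rpr where UAS-rpr was present. Cells of both groups were collected after 24 h of recovery. Each replicate pooled many discs, so no value belongs to a single animal.

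The gene cnc encodes several proteins, of which the longest, CncC, is the fly counterpart of Nrf2, a basic leucine zipper activator of antioxidant and detoxification genes. Keap1 holds it in check as the adaptor of a Cullin 3 ubiquitin ligase, and the small Maf protein encoded by maf-S is its DNA-binding partner. Glutathione, the main small thiol antioxidant of the cell, is made in a first step by glutamate-cysteine ligase, a dimer of the catalytic subunit Gclc and the modifier subunit Gclm, and in a last step by glutathione synthetase. Genes for both ligase subunits are known targets of Nrf2 proteins. The study asks how gene expression, including that of genes that make or remove reactive oxygen species, differs between blastema and undamaged pouch cells.

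The genes were measured as FPKM, fragment counts scaled by transcript length and library size. One FPKM per group, combined over the 3 replicates by the authors' Cuffdiff run, was available, so the values have no replicate error and no difference between the groups was tested. A log2 ratio is that of ablated over control FPKM with no pseudocount, and a gene was counted as past the fold when the ratio was at least 1.5 in either direction. No fragment counts were available, so the depth behind a gene is unknown. Summed over the whole table, FPKM came to 889990 in the ablated group and 1081834 in the control group.

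The regulators and the synthesis genes differed in both directions between blastema and control pouch cells, by less than 1.5-fold as deposited. Keap1 and Gclc were higher in the ablated group, by 36.2% and 31.3%, whereas maf-S and Gclm were lower, by 18.6% and 17.9%, and cnc was lower by 3.32%. In size, the ratio of Keap1 was larger than that of 64.0% of the 8437 genes, and that of Gclc larger than 58.4%. For maf-S, Gclm and cnc these shares were 46.2%, 44.6% and 8.0%. None of the 5 was past 1.5-fold in either direction. Of the 8437 genes past the minimum, 15.0% were past 1.5-fold as higher in the ablated group and 9.47% as lower. None of the 5 reached the study's own fold cutoff of 1.3 on the log2 scale either. Of the 8437 genes, 4.49% passed it as higher and 2.13% as lower. The study joined this cutoff with a limit on the p-value, which was not applied here. The median log2 ratio of the 5 genes was -0.05 and that of the 8437 genes was -0.04.

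**Figure D1:**
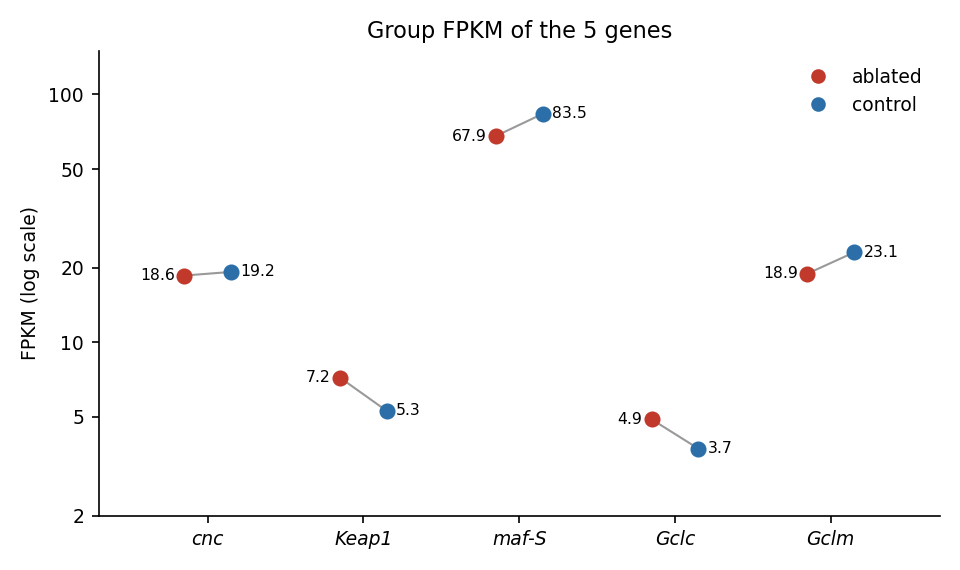
FPKM of the 5 genes (log scale) in the ablated group (red, left point of each pair) and the control group (blue, right point), 1 value per group with no replicate error. Keap1 and Gclc were higher in the ablated group, maf-S and Gclm lower, and the values of cnc, 18.6 and 19.2, almost coincide.

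The locus that the table gives for cnc runs on chromosome arm 3R from 18999595 to 19047683 (build 5 of the genome, as for all positions here) and is shared with 2 other genes, Ir and fzo. It had 18.6 FPKM in the ablated group and 19.2 FPKM in the control group, a log2 ratio of -0.05. Among the 8437 genes, 51.0% had a higher ratio and 8.0% a ratio closer to 0 in size. Its level stood at percentile 52.7 of these genes in the ablated group and at percentile 52.8 in the control group.

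The value of cnc is a sum over very different transcripts. In the annotation BDGP6.54 cnc has 16 transcripts with 10 start sites spread over 37582 bp, and their proteins range from 533 to 1430 residues. Only the long products carry the amino-terminal part through which Keap1 binds. A difference in the CncC transcripts alone cannot be seen in a gene-level FPKM, and transcript-level values were not analysed here. Of the genes at the shared locus, Ir had 21.7 FPKM in the ablated group and 9.21 FPKM in the control group, and fzo 0.093 and 0.023 FPKM in the same order. Ir was therefore higher in the ablated group by 1.23 on the log2 scale at a locus where cnc itself was nearly level. The library kit keeps the strand, but whether the counting used it is not given in the sources used here, so reads shared between overlapping genes could affect all 3 values.

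Keap1, the repressor, had the highest ratio of the 5 genes. It lies on 3R from 12899661 to 12905665, and no other gene of the table overlaps it. Keap1 had 7.20 FPKM in the ablated group and 5.29 FPKM in the control group, a log2 ratio of 0.45, and 19.6% of the 8437 genes had a higher one. It is expressed at a modest level, at percentile 28.1 of the genes in the ablated group and percentile 24.7 in the control group. BDGP6.54 gives it 3 transcripts and proteins of 744 to 776 residues.

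The partner gene maf-S was the most abundant of the 5. It lies on 2R from 16528476 to 16529173, overlaps no other gene and is short, with a longest transcript of 646 bp. Its FPKM was 67.9 in the ablated group and 83.5 in the control group, a log2 ratio of -0.30, and 27.5% of the genes had a lower one. There were 3.65 FPKM of maf-S for each FPKM of cnc in the ablated group and 4.34 in the control group. FPKM is scaled by length, but how well it compares genes of unlike length and transcripts was not tested. For Keap1 the ratio to cnc was 0.39 in the ablated group and 0.27 in the control group. By gene-level FPKM, Keap1 was thus below cnc and maf-S above it in both groups. The cnc value covers all its transcripts at a shared locus, so the ratios to the CncC transcripts alone are not known.

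The 2 subunits of glutamate-cysteine ligase differed in opposite directions in the FPKM as deposited. With both groups rescaled to the same FPKM sum, Gclc had a log2 ratio of 0.67 and Gclm one of -0.0033. Gclc, on the X chromosome from 7996613 to 8010177, had 4.89 FPKM in the ablated group and 3.73 FPKM in the control group, a log2 ratio of 0.39. Gclm, on 3R from 18511022 to 18512249, had 18.9 FPKM in the ablated group and 23.1 FPKM in the control group, a log2 ratio of -0.28. Neither overlaps another gene. The ratio of 21.6% of the 8437 genes was higher than that of Gclc, and the ratio of 28.5% was lower than that of Gclm. The FPKM of Gclm was above that of Gclc in both groups, 3.87 times as high in the ablated group and 6.19 times in the control group. The ratio of Gclc to Gclm was 0.26 in the ablated group and 0.16 in the control group, 1.60 times as high in the ablated group. Genes of similar mean FPKM and transcript length, described below, differed in the same direction, with median log2 ratios of 0.33 beside Gclc and -0.22 beside Gclm.

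**Figure D2:**
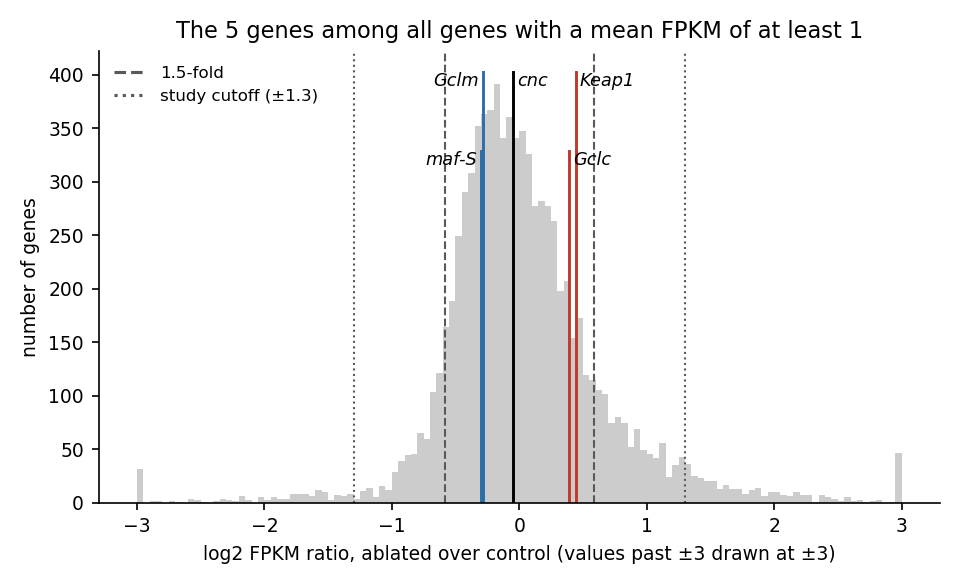
Number of genes by log2 FPKM ratio of ablated over control for the 8437 genes past the minimum FPKM (grey), with the 5 genes as vertical lines, 1.5-fold as dashed lines and the study's cutoff of 1.3 as dotted lines. All 5 genes lie inside the dashed lines, Keap1 (0.45) and Gclc (0.39) to the right of the centre and maf-S (-0.30) and Gclm (-0.28) to the left.

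Ratios varied with the level and the length of a gene over the whole table. Over all 8437 genes the ratio was higher in weakly expressed than in strongly expressed genes, with a median of 0.43 in the lowest of 5 equal bins of mean FPKM and -0.31 in the highest, and higher in long than in short genes, with a median of 0.22 in the fifth of genes with the longest transcripts and -0.29 in the fifth with the shortest. Gclc and Keap1 are the weakly expressed members, with longest transcripts of 4238 and 3162 bp in BDGP6.54, and Gclm and maf-S have longest transcripts of 1505 and 646 bp. Genes of similar mean FPKM, 1 of 20 equal bins, had a median log2 ratio of 0.14 beside Keap1, 0.20 beside Gclc, -0.05 beside cnc, -0.08 beside Gclm and -0.30 beside maf-S. The ratios of cnc and maf-S were equal to these medians within 0.01, and Keap1 lay 0.31 above its bin, Gclc 0.19 above and Gclm 0.21 below.

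Genes of similar mean FPKM and similar transcript length together, a comparison chosen after the values were seen, had medians of 0.17 beside Keap1, 0.33 beside Gclc, 0.21 beside cnc, -0.22 beside Gclm and -0.44 beside maf-S. Against these medians Keap1 remained 0.27 higher, Gclc and Gclm lay within 0.07, cnc was 0.26 lower and maf-S 0.14 higher. Keap1 and Gclc were above and Gclm was below the median in both comparisons, while for cnc and maf-S the sign depended on which genes they were set beside. What part level and length have in the ratios of the 5 genes was not tested.

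**Figure D3:**
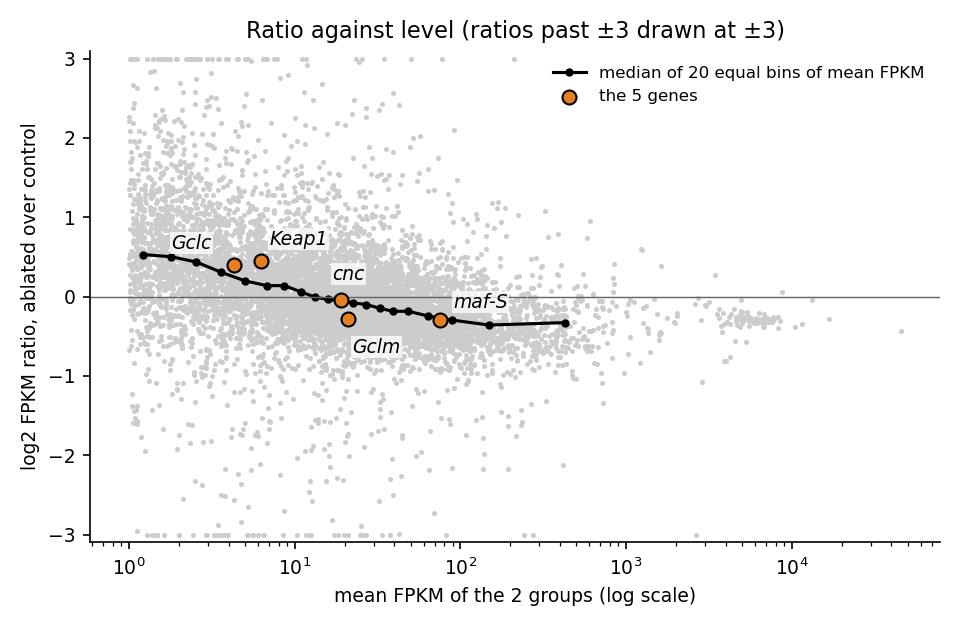
Log2 FPKM ratio of ablated over control against the mean FPKM of both groups (log scale) for 8437 genes (grey), with the median of each of 20 equal bins (black line) and the 5 genes (orange). The line runs downward with level, cnc (-0.05) and maf-S (-0.30) lie on it, Keap1 and Gclc lie above it and Gclm below.

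The scale of the groups also bears on the directions. When the FPKM of each group were rescaled to the same sum, all ratios were 0.28 higher and the median of the 8437 genes became 0.24. On that scale Keap1 had a log2 ratio of 0.73 and Gclc of 0.67, both past 1.5-fold, cnc had 0.23, and maf-S and Gclm had -0.02 and -0.00. Distances to the median of all genes are the same on both scales. Keap1 lay 0.48 above that median and Gclc 0.43 above, cnc 0.01 below, Gclm 0.25 below and maf-S 0.26 below.

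**Figure D4:**
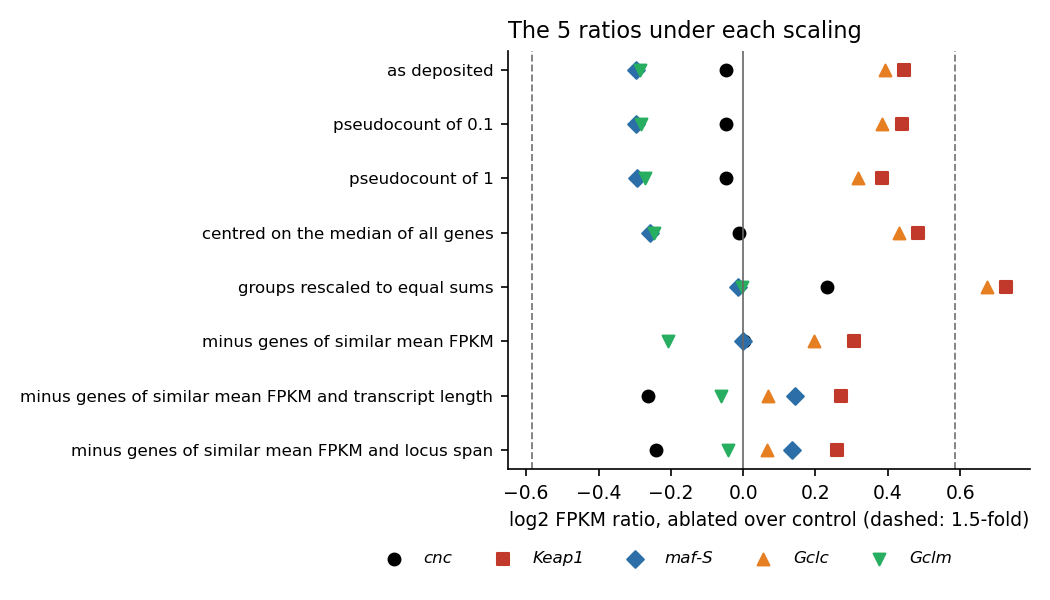
Log2 FPKM ratios of the 5 genes, ablated over control, as deposited (top) and under 7 other scalings, with 1.5-fold dashed. Keap1 and Gclc are above 0 in every scaling drawn and past 1.5-fold in 1 of them, the groups rescaled to equal sums, while cnc and maf-S change sign between scalings.

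The genes for other proteins that act on cnc and Keap1 differed in both directions as well. All 6 genes listed passed the minimum FPKM, and their median log2 ratio was -0.14 beside -0.04 for all genes. Of the 6, 1 was past 1.5-fold, as lower, beside 9.47% of all genes, and none was past it as lower in 6 of 10 alternatives, among them mere subtraction of the all-gene median. That gene was Roc1a, the RING subunit of cullin ligases, with 162 FPKM in the ablated group and 248 FPKM in the control group (log2 ratio -0.62), and it overlaps another gene. As higher, 1 of the 6 was past 1.5-fold with equal sums, beside 25.9% of all genes. Relative to genes of similar mean FPKM, 1 was past it as higher, beside 11.8% of all genes. Nedd8, the modifier that activates cullins, had 223 and 305 FPKM in the same order (-0.45). The highest ratio was that of fs(1)h, a bromodomain protein known to hold back CncC in flies, with 35.8 FPKM in the ablated group and 25.8 FPKM in the control group (0.47). For ref(2)P, the fly p62 protein, the values were 87.3 and 78.7 FPKM (0.15).

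The genes around the ligase step could be read only in part. Glutathione synthetase is encoded by a pair of neighbouring gene copies, listed as GS and CG32495, and both are listed at 0 in both groups. Such a 0 can be a failed estimate, so nothing is said here about the last step of synthesis. Of 5 genes listed, 3 passed the minimum, and their median log2 ratio was 0.17 beside -0.04 for all genes. Of the 3, 1 was past 1.5-fold as lower and none as higher, beside 9.47% and 15.0% of all genes. That gene was Eip55E, which encodes cystathionine gamma-lyase and helps supply cysteine. It had 34.0 FPKM in the ablated group and 65.3 FPKM in the control group, a log2 ratio of -0.94. CG1753, cystathionine beta-synthase, had 104 and 92.3 FPKM in the same order (0.17), and the amino acid transporter subunit gene gb had 3.99 and 3.44 FPKM (0.21).

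Of the genes that use or break down glutathione, those listed here were mostly lower in the ablated group. The list leaves out the GstD, GstE and GstS glutathione transferases. The paper has GstD4 to GstD8 among its upregulated genes, so the list does not stand for all such genes. Of 16 genes listed, 15 passed the minimum and 12 of these had a ratio below 0, beside 52.9% of all genes. Their median log2 ratio was -0.46, and 5 were past 1.5-fold as lower and none as higher, beside 9.47% and 15.0% of all genes. The glutathione transferase gene CG9363 had the lowest ratio, with 0.74 FPKM in the ablated group and 2.01 FPKM in the control group (log2 ratio -1.43). It alone passed the study's fold cutoff, with no p-value limit applied. CG4365, which encodes a hydrolase of the glyoxalase pathway, had 57.3 and 108 FPKM in the same order (-0.92). The highest ratios were those of MRP, an export pump for glutathione conjugates, with 34.2 FPKM in the ablated group and 27.7 FPKM in the control group (0.31), and of the gamma-glutamyl transpeptidase gene CG6461, with 2.13 and 1.76 FPKM (0.28). Relative to genes of similar mean FPKM the median of the list was -0.22. On that scale 2 genes were past 1.5-fold as lower, beside 8.64% of all genes. With transcript length or locus span matched as well, 1 gene was past it as lower, beside 7.62% and 8.69% of all genes. With equal sums 2 genes were past it as lower and 1 as higher, beside 3.99% and 25.9% of all genes.

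The enzymes that supply NADPH or pass its electrons on differed in both directions. For the latter task flies use thioredoxin reductase in place of glutathione reductase. Of 6 genes listed, 5 passed the minimum, and 4 of these had a ratio below 0 and 1 above, beside 52.9% of all genes below 0. The median log2 ratio was -0.14, beside -0.04 for all genes. It was 0.14 with equal sums and -0.016 relative to genes of similar mean FPKM. Of the 5, 1 was past 1.5-fold as higher and 1 as lower, beside 15.0% and 9.47% of all genes. Men, malic enzyme, had 7.70 FPKM in the ablated group and 4.25 FPKM in the control group (log2 ratio 0.86). Idh, an NADP-dependent isocitrate dehydrogenase, had 405 and 625 FPKM in the same order (-0.63), and was not past 1.5-fold with equal sums or relative to genes of similar mean FPKM, with or without length or span matched. The values were 14.2 and 15.0 FPKM for Zw, glucose-6-phosphate dehydrogenase (-0.07), 285 and 362 FPKM for Trxr-1 (-0.34), and 40.1 and 44.4 FPKM for Pgd, phosphogluconate dehydrogenase (-0.14), which is named to complete the list. Trxr-2 is listed at 0 in both groups.

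Genes known to respond to cnc in flies had a median slightly above that of all genes. Of 11 listed, 9 passed the minimum, 6 of them had a ratio above 0, beside 3970 of all 8437 genes, and the median log2 ratio was 0.16. Of the GstD transferases the list holds only GstD1 (log2 ratio -0.15) and GstD2 (0.19), and none that the paper has as upregulated. The 1 gene of the 9 past 1.5-fold, beside 15.0% of all genes as higher, was GstE1, a glutathione transferase gene, with 57.3 FPKM in the ablated group and 36.9 FPKM in the control group (log2 ratio 0.63). Cyp6a8, a cytochrome P450 gene, had 1.20 and 0.83 FPKM in the same order (0.53). The lowest ratios were those of Trxr-1, given above, and of the heme oxygenase gene Ho, with 8.62 FPKM in the ablated group and 9.73 FPKM in the control group (-0.17). Near-identical transferase genes can share reads, which leaves the values of GstE1 and CG9363 uncertain.

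**Figure D5:**
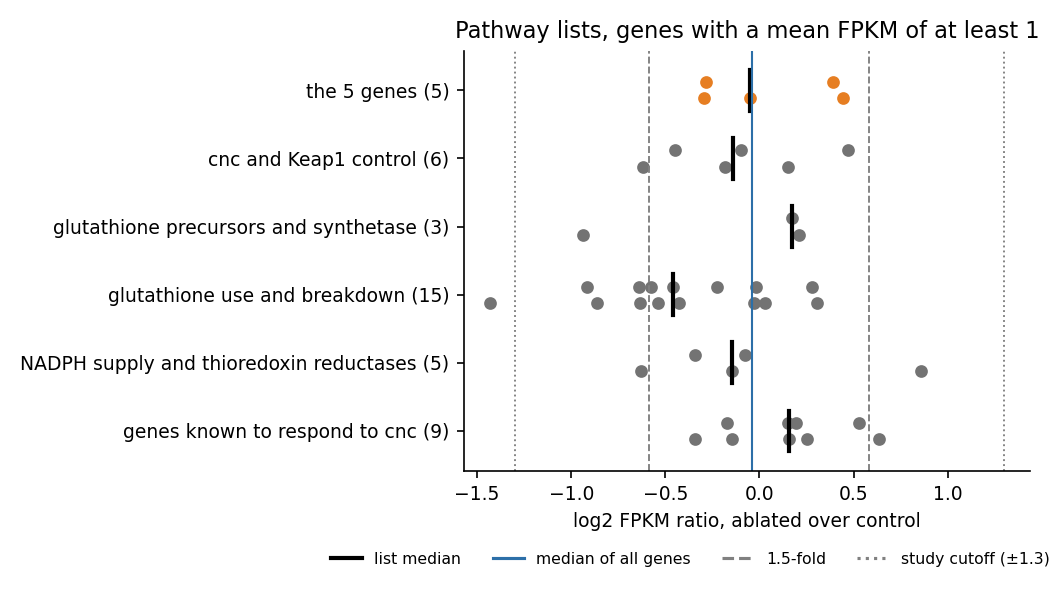
Log2 FPKM ratio of ablated over control for each gene past the minimum FPKM in the 5 genes and in 5 pathway lists (number of genes in brackets), with the list median (black bar), the median of all genes (blue line), 1.5-fold (dashed) and the study's cutoff (dotted). The list of genes that use or break down glutathione has its median at -0.46, and the 5 genes have theirs at -0.05, close to the line for all genes.

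In the plane of log2 FPKM of the ablated and the control group, which is a likeness over 2 group values only, the nearest genes were aux and CG8461 to cnc (distances of 0.017 and 0.019), CG5669 and CG12499 to Keap1 (0.0086 and 0.030), mad2 and tw to maf-S (0.014 and 0.018), l(2)k16918 and a6 to Gclc (0.031 and 0.042), and CG9921 and Ercc1 to Gclm (0.014 and 0.014).

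The pouch genes nub, rn, vg and pdm2 were present in both groups, with a summed 149 FPKM in the ablated group and 241 FPKM in the control group. Of these 4, 3 were past 1.5-fold as lower, beside 9.47% of all genes. All samples were sorted for nub-GFP, so these values cannot test the sort. Markers of neighbouring regions were higher in the ablated group: the 3 hinge markers summed to 240 and 146 FPKM in the same order, and the 3 notum markers to 24.6 and 11.3 FPKM. The 4 myoblast markers summed to 19.4 FPKM in the ablated group and 1.32 FPKM in the control group. The 5 hemocyte markers summed to 2.98 and 1.19 FPKM in the same order, with NimC1 listed at 0 in the control group. Of these markers, only 2 for myoblasts and 1 for hemocytes, srp, passed the minimum FPKM. The 3 tracheal markers summed to 12.8 FPKM in the ablated group and 26.6 FPKM in the control group, but only trh was lower (3.64 and 21.8 FPKM in the same order), while btl (3.33 and 1.07 FPKM) and dys (5.80 and 3.76 FPKM) were higher. In sorted bulk cells a different mix of cells and a different amount of RNA per cell cannot be told apart, and the part of these cell types in the ratios of the 5 genes was not tested.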

How the data were processed

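mRNA-seq values of 6 samples in 2 groups were analysed. The authors trimmed the reads, removed adaptors, aligned the reads with Tophat2 to Drosophila melanogaster build 5, estimated FPKM with Cufflinks with bias and multi-read correction, and combined 3 replicates per group into 1 FPKM with Cuffdiff, with geometric library normalization. TopHat2 0.6 and Cufflinks 0.0.7 are the versions in the submitters' processing notes. The deposited table also holds the authors' own comparison (log2 fold change, test statistic, p and q values, significance), which was not used. Without replicate values no test, standard deviation or interval could be computed, and no depth per gene is known.

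Ratios were computed for all genes, and shares over those whose mean FPKM reached 1. Members and lists were chosen with earlier results of these data known. Named genes were the 5 members, genes overlapping them, the 2 nearest genes of each, and the 2 highest and 2 lowest ratios of each list (all of a list with 4 or fewer). GstD1 and GstD2 were named in addition. The lists were matched by symbol, or by a synonym that RefSeq lists for release 6,, and all 42 pathway genes were found. Some aliases were corrected after the table was read. Starts were taken to count from 0 in the table, since 1271 of 6803 genes then had their release 6 length (105 otherwise), and are given counted from 1. Transcript lengths came from BDGP6.54 and were found for 98.2% of the 8437 genes. The code was tested on simulated data. Promoter motifs were not analysed here. Python 3.11.15, numpy 2.4.6, pandas 2.3.3 and matplotlib 3.10.9 were used.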

Additional observations from a re-analysis of the deposited data

How the results depend on the processing

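Ratios and medians that moved by less than 0.1 on the log2 scale were taken as unmoved. Pseudocounts of 0.1 and 1 FPKM and centring on the median of all genes moved none of the 5 gene ratios by that much. Rescaling both groups to the same sum gave log2 ratios of 0.23 for cnc, 0.73 for Keap1, -0.015 for maf-S, 0.67 for Gclc and -0.0033 for Gclm, with 2 of the 5 genes past 1.5-fold as higher and 25.9% of all genes past it as higher and 3.99% as lower. With a fold of 5 to 4, 2 genes were past it as higher and none as lower, while 49.4% of all genes lay within that fold. With a fold of 2 none was past it in either direction, and the share of all genes was not computed there. Relative to the median of the matching FPKM bin the ratio was 0.31 for Keap1, -0.00051 for maf-S and 0.19 for Gclc. With transcript length matched as well it was -0.26 for cnc, 0.27 for Keap1, 0.14 for maf-S, 0.067 for Gclc and -0.062 for Gclm, and with locus span matched -0.24, 0.26, 0.14, 0.065 and -0.043 in the same order. Both were added after the values were seen. None of the 5 genes was past 1.5-fold in these 3 alternatives. Of all genes, 11.8%, 10.5% and 10.3% were past it as higher in the same order. As lower, 8.64%, 7.62% and 8.69% were.

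For the proteins that act on cnc and Keap1 the median was 0.14 with equal sums, 0.11 relative to the FPKM bins, 0.13 with transcript length matched and 0.071 with locus span matched, so its sign changed. For glutathione precursors and synthetase, 3 genes, the medians were 0.46, -0.096, -0.26 and -0.18 in the same order, and -0.38 with a mean FPKM of at least 5. For genes that use or break down glutathione they were -0.18, -0.22, -0.10 and -0.15, and -0.61 without genes that overlap another. For NADPH supply and thioredoxin reductases they were 0.14, -0.016 and 0.070 in the first 3 settings, and for genes known to respond to cnc 0.44 with equal sums and 0.26 with transcript length matched. With no filter on low values 27.9% of genes were past 1.5-fold as higher, and with a mean FPKM of at least 5 8.17%. With a pseudocount of 1 the ratio of Gclc to Gclm was 0.30 in the ablated group and 0.20 in the control group, and that of Keap1 to cnc 0.42 and 0.31.

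No paired analysis was possible because the values of single replicates were not used. For the same reason no replicate was left out, and the precision of each ratio is unknown.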
